A study of Mus musculus with 51 samples.

Results

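The 8 genes described here are the milk protein genes of the mouse: the caseins Csn1s1, Csn1s2a, Csn1s2b, Csn2 and Csn3, the whey proteins Wap and Lalba, and the mucin-like Glycam1. They were taken by symbol from a list, out of 52636 genes in the tables, and 7 of the 8 had counts. RNA was sequenced in bulk from mammary cells sorted by flow cytometry, in 51 libraries that form 17 groups of 3. The mice were 6 months old and had an estrogen receptor gene that was wild type (WT) or bore the mutation labelled D542G or Y541S. All of them, the controls included, received pellets of the hormones E2 (estradiol) and P4 (progesterone). They were then given vehicle (MCT) or giredestrant by mouth, 30 mg/kg daily for 4 days. Giredestrant is an antagonist of the estrogen receptor alpha. Vehicle groups exist for the populations ML (mature luminal) and Basal in each genotype. Giredestrant groups exist for ML, LP (luminal progenitor) and Basal in each genotype, and for a further population, here called N, in D542G and Y541S. The series' design text calls the 3 libraries of a group biological replicates, and it does not say whether equal numbers in different populations mark one animal. The sources used here do not say in which cells the mutations were active or what gate defines N.

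Caseins are the phosphoproteins that assemble into the micelles of milk and carry its calcium, and the whey proteins stay in solution around them. In the mammary gland these genes are made by secretory alveolar cells, which descend from luminal progenitors in pregnancy. Prolactin induces them through its receptor, the kinase Jak2 and the transcription factor Stat5, together with glucocorticoids, while progesterone is known for holding back full secretion until birth. The caseins come on before Wap and Lalba in pregnancy, and none of the animals here was labelled as pregnant or lactating.

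The 5 caseins lie in 1 cluster on chromosome 5 (GRCm38, the build in the submitters' processing notes, with genes as annotated in GENCODE M21). Csn1s1 encodes an alpha-S1 casein and spans 87666208 to 87682578 on the plus strand. Csn2, the beta casein, spans 87692624 to 87699630 on the minus strand. Csn1s2a and Csn1s2b, which encode alpha-S2 caseins, span 87774567 to 87788797 and 87808082 to 87824426 on the plus strand. Wap, whey acidic protein, lies on chromosome 11 from 6635482 to 6638637. Lalba, alpha-lactalbumin, the regulatory subunit of lactose synthase, lies on chromosome 15 from 98480400 to 98482721, and Glycam1 on the same chromosome from 103562759 to 103565081, all 3 on the minus strand. Csn3, the kappa casein that caps the micelle, spans 87925579 to 87932665 on chromosome 5 and lies entirely (100%) inside the antisense gene 1700066N21Rik, which spans 87908579 to 87979351. Its count was 0 in all 51 libraries, against 2325 counts in all for the antisense gene, so Csn3 could not be measured in these tables and entered no test. None of the other 7 genes is overlapped by another annotated gene.

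The promoters are shown because Stat5 is the factor through which prolactin acts on these genes, and most of the members with a sequence hold its motif near the start. Of the 8 genes, 6 had a sequence from 250 bases before to 50 bases after the start in RefSeq (build GRCm38.p6). The Stat5 motif TTCNNNGAA, read on either strand since it is its own reverse complement, was found in 4 of the 6, and in 8.30% of all 32851 promoters of that length. The C/EBP motif TTGCNNAA was in 0 of 6 (10.8% of all), the glucocorticoid and progesterone receptor motif AGAACA in 1 of 6 (19.0% of all), and the palindromic estrogen response element in 0 of 6 (0.07% of all), each on both strands. AGAACA was in Csn1s2a and did not overlap the Stat5 match. These are matches of letters, and no binding was measured. Each stretch below is written 5′ to 3′ with the Stat5 match in capitals.
Csn1s1, chr5:87665958-87666207, plus strand: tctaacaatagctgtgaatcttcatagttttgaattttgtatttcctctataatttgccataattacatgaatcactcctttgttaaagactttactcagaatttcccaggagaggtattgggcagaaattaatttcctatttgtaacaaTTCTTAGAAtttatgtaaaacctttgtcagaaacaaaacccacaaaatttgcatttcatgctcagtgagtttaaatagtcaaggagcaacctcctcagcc
Csn2, chr5:87699426-87699675, minus strand: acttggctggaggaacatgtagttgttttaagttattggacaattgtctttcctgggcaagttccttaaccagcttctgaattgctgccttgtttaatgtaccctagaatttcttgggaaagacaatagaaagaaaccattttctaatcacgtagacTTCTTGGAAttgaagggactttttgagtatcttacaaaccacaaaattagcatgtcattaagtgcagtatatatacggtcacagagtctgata
Csn1s2a, chr5:87774200-87774478, plus strand: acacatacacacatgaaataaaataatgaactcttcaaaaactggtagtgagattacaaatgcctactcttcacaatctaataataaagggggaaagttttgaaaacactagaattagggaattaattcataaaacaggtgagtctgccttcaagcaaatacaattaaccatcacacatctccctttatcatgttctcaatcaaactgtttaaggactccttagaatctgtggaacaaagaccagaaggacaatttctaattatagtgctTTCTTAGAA
Glycam1, chr15:103565082-103565331, minus strand: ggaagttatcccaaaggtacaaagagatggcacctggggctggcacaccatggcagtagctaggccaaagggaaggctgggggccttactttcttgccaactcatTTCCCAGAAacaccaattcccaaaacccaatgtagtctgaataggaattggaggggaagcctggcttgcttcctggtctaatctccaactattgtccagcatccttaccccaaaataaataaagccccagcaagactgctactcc
The match began 100 bases before the RefSeq start in Csn1s1, 93 before it in Csn2 and 145 before it in Glycam1. In Csn1s2a it began at base 21 after the RefSeq start, which lies 117 bases before the start in GENCODE, so the match sat 97 bases before the latter. For Csn2 the GENCODE start lies 205 bases upstream of the RefSeq one, so the printed stretch falls mostly inside the GENCODE gene. By that annotation the Csn2 match lies 112 bases after the start, within the gene.

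The libraries held 21397339 to 60128473 counts. Levels are given as CPM, each library's counts scaled to a common total, with TMM scaling over all 51 libraries. The sorts carried their markers: summed over 10 basal markers, the level was 21185 to 50619 CPM in the Basal libraries and 122 to 1217 CPM in the ML ones, and 11 mature luminal markers summed to 1764 to 8166 CPM in ML and 187 to 1201 CPM in Basal. Luminal progenitor markers did not separate LP (2074 to 3570 CPM) from ML (749.7 to 3983 CPM). The listed marker Tspan8 was at 0 in all 51 libraries. The libraries of Y541S with giredestrant stand apart for the milk genes: those numbered 1 and 2 were high and those numbered 3 were low, in every sorted population. Results that rest on libraries 1 and 2 are given with and without them. The 8 genes held 1.95% of all counts in ML library 1 of that group, 1.79% in LP library 1, 1.07% in LP library 2 and 0.575% in ML library 2. Another 5 libraries, 4 of them from N or Basal of Y541S with giredestrant and 1 from ML of D542G with giredestrant, lay between 0.114% and 0.442%. The remaining 42 libraries were under 0.1%.

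**Figure D1:**
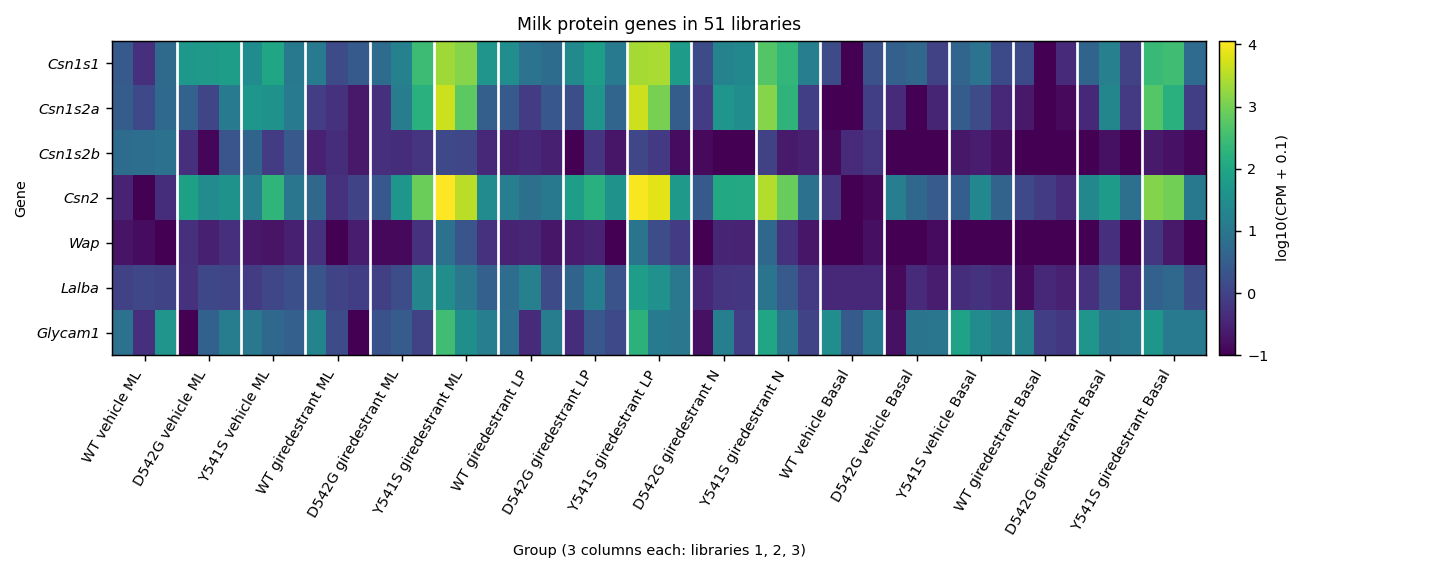
Level of the 7 measured milk protein genes, as log10(CPM + 0.1), in each of the 51 libraries, with 3 columns per group for libraries 1, 2 and 3. The bright cells are libraries 1 and 2 of Y541S with giredestrant, where Csn2 reached 11436 CPM, while Csn1s2b is brightest in ML of WT with vehicle.

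With vehicle, ML cells of both mutants made more Csn2 than WT, where the gene was nearly silent. Csn2 was at 0.209, 0 and 0.354 CPM in WT libraries 1, 2 and 3, which is 5, 0 and 9 counts. It was at 74.1, 27.2 and 38.7 CPM in D542G and at 14.8, 203 and 9.49 CPM in Y541S. Neither mutant group overlapped WT, and Y541S library 2 was far above the other two of its group. The log2 ratio to WT was 7.89 ± 2.54 (SE) in D542G (adjusted p = 0.0391) and 8.60 ± 2.57 in Y541S (adjusted p = 0.0435). In these sorted but bulk samples, more cells making a transcript and more transcript per cell cannot be told apart.

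The D542G call did not outlast the loss of any 1 of the 6 libraries (log2 ratios 7.35 to 8.69), and the Y541S call was lost without any 1 of WT libraries 1, 2 and 3 (8.62, 8.04 and 9.38) or Y541S libraries 1 and 2 (9.05 and 5.95). Csn1s1 did not pass the test in either mutant. It was at 2.59, 0.374 and 5.39 CPM in WT and at 50.1, 53.9 and 65.1 CPM in D542G, groups that did not overlap (log2 ratio 4.34 ± 1.53, adjusted p = 0.0568). In Y541S it was at 28.6, 97.1 and 10.8 CPM (4.04 ± 1.51, adjusted p = 0.0989). Csn1s2a was at 2.97, 1.22 and 5.31 CPM in WT and at 3.82, 1.05 and 11.4 CPM in D542G, which overlapped, and at 46.2, 40.1 and 11.8 CPM in Y541S, above all WT libraries (3.38 ± 1.76, adjusted p = 0.242). Of the 7 members tested, 1 rose and 1 fell in D542G, where 9.37% of all genes tested rose and 10.2% fell, and 1 rose in Y541S, where 4.79% of all genes did. The median log2 ratio was 0.77 over the members and 0.06 over all genes in D542G, and 1.56 and 0.03 in Y541S.

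Csn1s2b was highest in ML of WT with vehicle, at 5.98, 6.69 and 8.03 CPM. With giredestrant it was at 0.194, 0.368 and 0.122 CPM in WT ML, so no library overlapped. The log2 ratio was -4.96 ± 1.01 (adjusted p = 0.0016). It was the 1 member of 7 that passed in this comparison, where 17% of all genes tested fell, and it passed in each fit that left out 1 of the 6 libraries and in each other alternative setting. The median over the members was 0.32, against 0.08 over all genes. Csn1s2b was also lower in D542G than in WT with vehicle, at 0.397, 0.026 and 2.04 CPM (-3.06 ± 0.91, adjusted p = 0.0264), a call lost without WT library 2 or 3 (-3.11 and -2.96) or D542G library 1 or 2 (-2.73 and -2.48). In Y541S with vehicle it was at 4.26, 0.662 and 2.48 CPM (-1.46 ± 0.84, adjusted p = 0.296). With giredestrant it was at 0.381, 0.361 and 0.487 CPM in D542G (-1.04 ± 0.91, adjusted p = 0.437) and at 1.22, 1.07 and 0.275 CPM in Y541S (-1.63 ± 0.87, adjusted p = 0.189). Both groups overlapped their vehicle libraries, and neither ratio passed the test. The difference of the giredestrant effect from that in WT did not pass in either mutant (3.92 ± 1.32, adjusted p = 0.0874 in D542G and 3.33 ± 1.28, adjusted p = 0.137 in Y541S). Without D542G vehicle library 3 it passed in D542G (5.86, adjusted p = 0.0171).

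**Figure D2:**
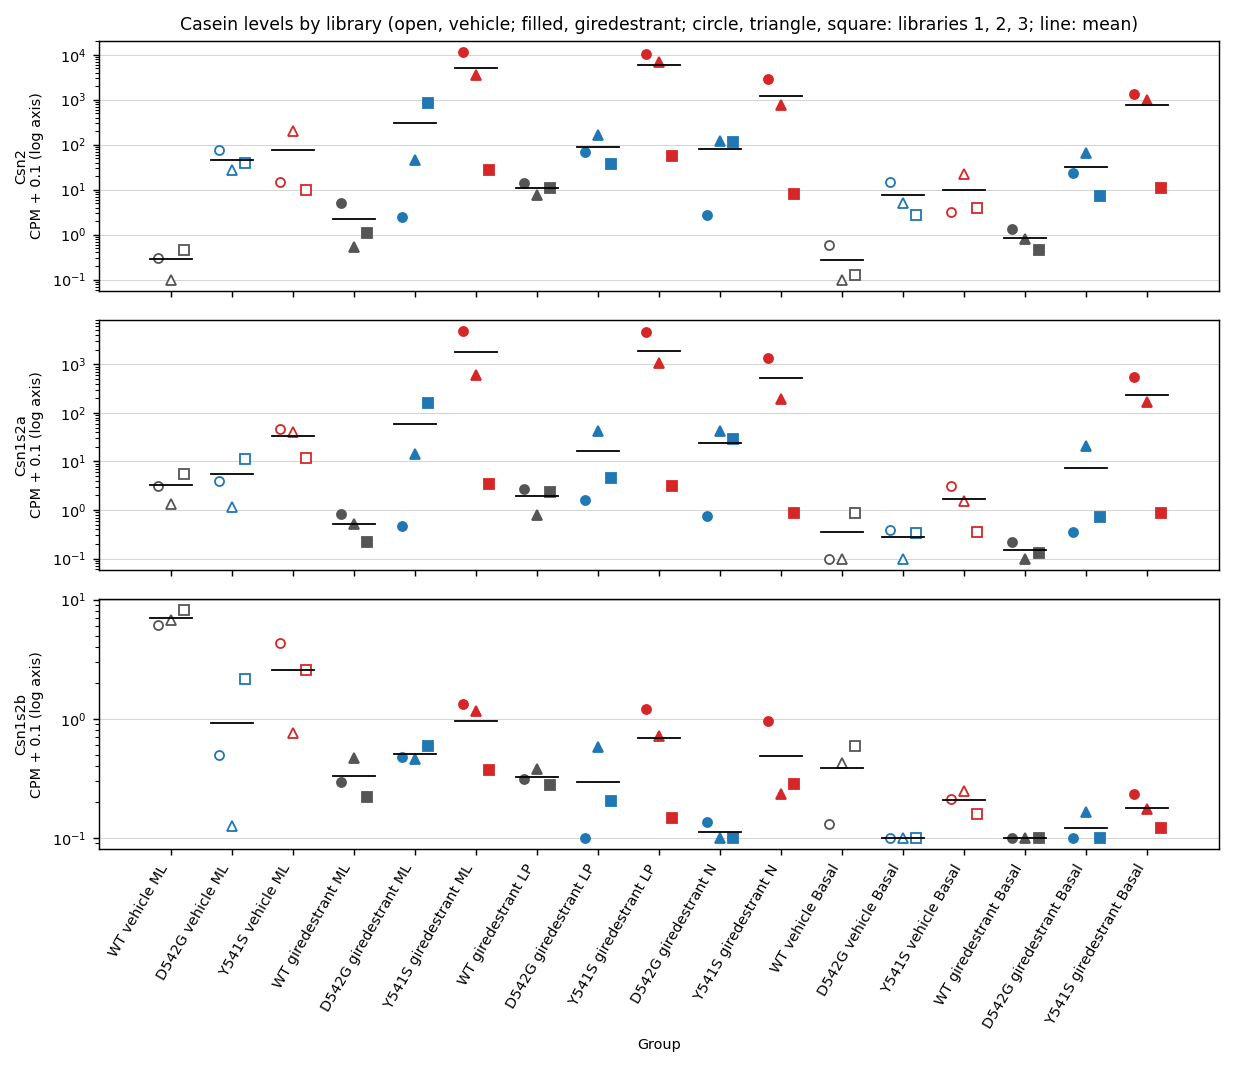
CPM + 0.1 on log axes of Csn2, Csn1s2a and Csn1s2b in every library, by group (grey WT, blue D542G, red Y541S; open symbols vehicle, filled giredestrant; circle, triangle and square for libraries 1, 2 and 3; line at the group mean). In Y541S with giredestrant the square lies far below the circle and triangle for Csn2 and Csn1s2a in all 4 populations, and Csn1s2b is highest in ML of WT with vehicle.

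In ML of Y541S, giredestrant was accompanied by higher levels of 5 of the 7 members tested: Csn1s1, Csn1s2a, Csn2, Lalba and Wap. Among all 17181 genes tested 12% rose, and the median log2 ratio was 4.61 over the members and 0.02 over all genes. Csn2 was at 11436, 3467 and 27.8 CPM with giredestrant, against 14.8, 203 and 9.49 CPM with vehicle. Libraries 1 and 2 lay above every vehicle library and library 3 lay within their range. The log2 ratio was 5.96 ± 1.99 (adjusted p = 0.0385). Csn1s1 was at 2215, 1366 and 43.2 CPM, with library 3 again inside the vehicle range of 10.8 to 97.1 CPM (4.65 ± 1.48, adjusted p = 0.0319). Csn1s2a was at 4784, 607 and 3.34 CPM, and library 3 was below all 3 vehicle libraries, which lay between 11.8 and 46.2 CPM (5.72 ± 1.88, adjusted p = 0.0361).

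Without libraries 1 and 2 the giredestrant group held 1 library, and the log2 ratio turned to -0.16 for Csn1s1, -1.53 for Csn2 and -3.37 for Csn1s2a. Without library 3 it was 5.21 for Csn1s1, 6.54 for Csn2 and 6.30 for Csn1s2a. The calls of Csn1s1 and Csn2 were lost without giredestrant library 1 (3.82 and 4.398), giredestrant library 2 (4.57 and 6.18), vehicle library 1 (4.44 and 5.52) or vehicle library 3 (4.22 and 5.49). That of Csn1s2a was lost without either of the former (3.10 and 6.14) or any vehicle library (6.09, 5.90 and 5.35). Markers of other cells moved in the same comparison: all 6 endothelial markers, 4 of 6 fibroblast markers and 4 of 10 basal markers rose, while 3 of 7 luminal progenitor markers rose and 1 fell. Whether these moves rest on libraries 1 and 2 cannot be decided, since the fit without them holds 1 giredestrant library and has little power. Fibroblast markers summed to 266, 338 and 273 CPM with giredestrant and 220, 106 and 103 CPM with vehicle, and adipocyte markers to at most 0.908 CPM. Their part in the casein levels was not tested.

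**Figure D3:**
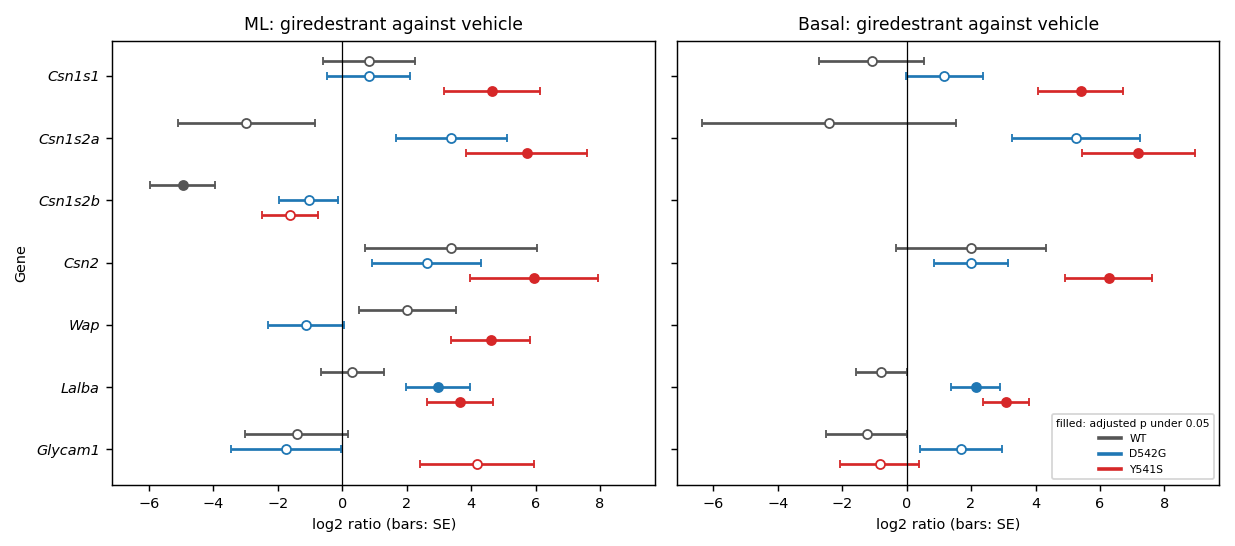
Log2 ratio of giredestrant to vehicle (points) with its SE (bars) for each tested member in ML and Basal, by genotype, filled where the adjusted p was under 0.05. In ML, 5 of 7 members of Y541S lie above 0 and are filled, and Csn1s2b of WT is filled below 0.

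Set against WT with giredestrant, the same 5 members were higher in Y541S ML, where 8.38% of all genes were. The medians were 4.18 over the members and -0.02 over all genes. WT ML with giredestrant held little casein mRNA: Csn2 was at 4.98, 0.429 and 0.998 CPM, Csn1s1 at 11.5, 1.32 and 2.63 CPM and Csn1s2a at 0.720, 0.429 and 0.122 CPM. All 3 Y541S libraries, number 3 included, were above the WT ones for these genes. The log2 ratios were 11.18 ± 2.49 for Csn2 (adjusted p = 0.0097), 7.86 ± 1.73 for Csn1s1 (adjusted p = 0.0093) and 12.08 ± 2.53 for Csn1s2a (adjusted p = 0.0076). These calls outlasted the loss of any single library, and without both libraries 1 and 2 the log2 ratios were 3.69, 3.05 and 2.98, none of them past the test. This comparison shares its giredestrant libraries with the one against vehicle.

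A larger giredestrant effect in Y541S than in WT was not established for the caseins in ML. The difference of effects was 2.58 ± 3.91 for Csn2 (adjusted p = 0.740), 3.82 ± 1.97 for Csn1s1 (adjusted p = 0.272) and 8.69 ± 2.74 for Csn1s2a (adjusted p = 0.0739). No member passed at this test in Y541S, where 5.79% of all genes did, or in D542G, where 6.57% did. At an unadjusted p under 0.05 there were 4 members in Y541S and 2 in D542G, and DESeq2 called 1 and 2. The Csn1s2a difference passed without Y541S giredestrant library 3 (9.28, adjusted p = 0.0238). The giredestrant effect in WT ML alone was 3.39 ± 2.67 for Csn2 and -2.97 ± 2.13 for Csn1s2a, neither past the test (adjusted p = 0.350 and 0.301).

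The order of the libraries repeated across the sorted populations of Y541S with giredestrant. Csn2 was at 10237, 7017 and 54.6 CPM in LP, at 2931, 764 and 7.97 CPM in N and at 1343, 963 and 10.98 CPM in Basal. Library 1 exceeded library 3 by 411-fold in ML, 188-fold in LP, 368-fold in N and 122-fold in Basal. For Csn1s2a, at 4638, 1042 and 3.03 CPM in LP, 1368, 192 and 0.756 CPM in N and 536, 164 and 0.783 CPM in Basal, the same ratio was 1432, 1529, 1809 and 685. Csn1s1 was at 2361, 2551 and 59.3 CPM in LP, 509, 223 and 14.4 CPM in N and 274, 324 and 5.77 CPM in Basal. Number 1 was highest in 25 of the 28 pairs of a gene and a population, and number 3 was lowest in 27, the exception being Csn1s2b in N. These are not independent repeats. In this group all 18 pairs of same-numbered libraries deviated together across genes, with correlations of 0.229 to 0.530.

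The proportions of the caseins also went with the library number in Y541S. Within a library, counts of Csn1s1 per count of Csn2 were 0.174 to 0.231 in the 4 libraries numbered 1, 0.292 to 0.394 in those numbered 2 and 0.525 to 1.81 in those numbered 3. Counts of Csn1s2a per count of Csn2 were 0.399 to 0.467, 0.149 to 0.251 and 0.0556 to 0.120. The ranges of the numbers did not overlap, although each covers ML, LP, N and Basal. The fall from LP to Basal differed by gene. The Basal level of Csn2 was 13.1%, 13.7% and 20.1% of that in the LP library of the same number. It was 11.6%, 12.7% and 9.73% for Csn1s1 and 11.6%, 15.8% and 25.8% for Csn1s2a. For Lalba it was 5.61%, 13.1% and 13.4%, and for Glycam1 26.5%, 92.2% and 114%. For the sum of 8 luminal progenitor markers that share was 20.0%, 19.6% and 15.005%, but single markers differed. Kit, Cd14, Aldh1a3 and Rspo1 were lower in Basal than in LP in each number. Itga2 was higher, at 52.0, 56.1 and 79.6 CPM in Basal and 36.0, 44.0 and 37.1 CPM in LP. Lurap1l was at 75.9, 81.8 and 70.6 CPM in Basal and 70.0, 76.5 and 114.9 CPM in LP. The part of luminal cells in the Basal result was not tested. No test was made on the library numbers, because the labels give them no meaning beyond the replicate.

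**Figure D4:**
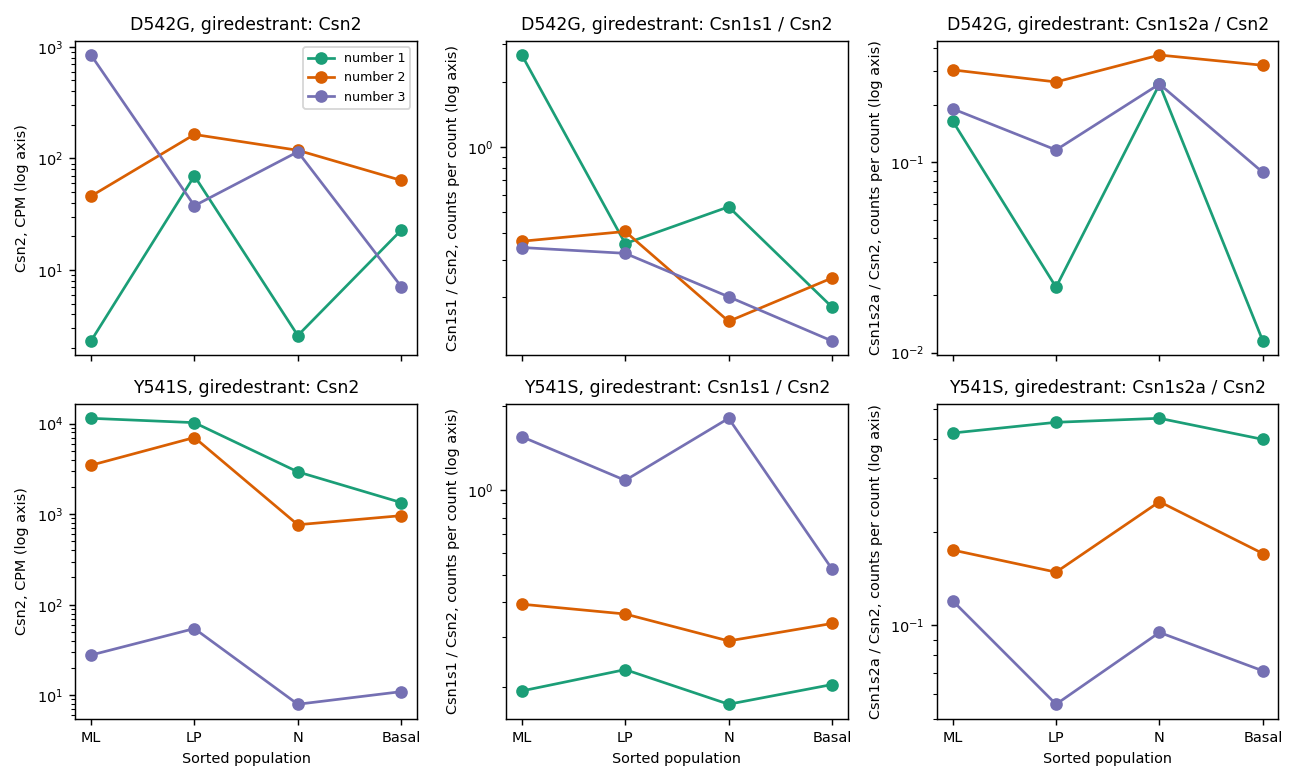
Csn2 level in CPM and the count ratios Csn1s1 to Csn2 and Csn1s2a to Csn2, all on log axes, in ML, LP, N and Basal of D542G (top) and Y541S (bottom) with giredestrant, with libraries of one number joined by a line. In Y541S the 3 lines keep apart in every panel, from 0.399 to 0.467 for Csn1s2a to Csn2 in number 1 to at most 0.120 in number 3, and in D542G they cross.

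In D542G with giredestrant the libraries had no constant order. In ML, Csn2 was at 2.31, 45.9 and 844 CPM, Csn1s1 at 6.18, 16.7 and 288 CPM and Csn1s2a at 0.381, 14.0 and 161 CPM. Library 3 was the high one there, and in LP the libraries were at 69.7, 164 and 37.6 CPM for Csn2, with library 3 the lowest. N was at 2.59, 118 and 115 CPM and Basal at 22.8, 63.5 and 7.11 CPM. Number 2 was highest in 18 of the 28 pairs of a gene and a population. In ML library 3 the luminal progenitor markers summed to 3983 CPM, against 2379 and 3041 CPM in libraries 1 and 2, and the mature luminal markers to 1764 CPM, against 8166 and 3176 CPM. Immune markers stood at 670 CPM in that library, against 148 and 214 CPM. Their part in the casein level was not tested.

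No casein passed in D542G ML. The log2 ratio of giredestrant to vehicle was 2.62 ± 1.70 for Csn2 (adjusted p = 0.285), 0.82 ± 1.28 for Csn1s1 (adjusted p = 0.683) and 3.39 ± 1.72 for Csn1s2a (adjusted p = 0.169). Lalba was the 1 member of 7 that rose, where 9.34% of all genes did, with medians of 0.82 and 0.05. Against WT with giredestrant no member passed, where 2.6% of all genes did, although the ratios were 7.12 ± 2.13 for Csn2 (adjusted p = 0.0844) and 7.13 ± 2.18 for Csn1s2a (adjusted p = 0.0899). At an unadjusted p under 0.05 there were 4 members in that comparison, and DESeq2 called 4.

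In LP, where giredestrant alone was sampled, 3 of 7 members were higher in Y541S than in WT and 2.43% of all genes were. The medians were 4.22 over the members and -0.02 over all genes. Csn2 was at 14.2, 7.38 and 10.9 CPM in WT, below all 3 Y541S libraries (8.999 ± 1.59, adjusted p = 0.0270). Csn1s1 was at 29.5, 8.39 and 6.08 CPM in WT, also below them (6.76 ± 1.35, adjusted p = 0.0325). Csn1s2a was at 2.57, 0.674 and 2.25 CPM in WT, where Y541S library 3 exceeded the highest by a narrow margin (9.96 ± 2.34, adjusted p = 0.0479). Without any 1 of the WT libraries or Y541S libraries 1 and 2, no member passed, with ratios of 8.24 to 9.24 for Csn2, 6.35 to 7.78 for Csn1s1 and 8.03 to 10.3 for Csn1s2a. The number of all genes called was unstable too: it was 587 with all libraries and 0 to 979 in the fits that left out 1 library. Without both Y541S libraries 1 and 2 the ratios were 2.30, 1.99 and 0.69. Fibroblast markers summed to 12876, 4810 and 4141 CPM in LP of Y541S and to 306, 487 and 240 CPM in LP of WT. Their part in these results was not tested. In D542G no member differed from WT, where 0.0302% of all genes did. There Csn2 had a ratio of 3.03 ± 1.22 (adjusted p = 0.269), it was the 1 member at an unadjusted p under 0.05, and DESeq2 called 0.

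Basal cells showed the same rise at a lower level. In Y541S, 4 of the 5 members that could be tested were higher with giredestrant than with vehicle, where 8.15% of all genes were. Csn1s2b and Wap were too low in Basal for the test. Csn2 was at 3.11, 22.6 and 3.90 CPM with vehicle and at 1343, 963 and 10.98 CPM with giredestrant, where library 3 fell within the vehicle range (6.27 ± 1.36, adjusted p = 0.0070). The log2 ratio was 5.40 ± 1.33 for Csn1s1 (adjusted p = 0.0134) and 7.19 ± 1.76 for Csn1s2a (adjusted p = 0.0131). Without giredestrant libraries 1 and 2 they were 0.11, 0.24 and -1.05 for Csn2, Csn1s1 and Csn1s2a, none of them called. The Csn2 call outlasted the loss of any single library. The Csn1s1 call was lost without vehicle library 3 or giredestrant library 2 (4.95 and 4.85), and that of Csn1s2a without vehicle library 2 or 3 or giredestrant library 1 (7.10, 6.68 and 5.67). Mature luminal markers summed to 406 to 540.6 CPM in these Basal libraries and to 232 to 391 CPM with vehicle. Luminal progenitor markers summed to 416 to 678 CPM and to 218 to 242 CPM. Their part in the rise was not tested.

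Against WT Basal with giredestrant, the same 4 members were higher in Y541S, where 7.59% of all genes were. WT Basal was at 1.22, 0.704 and 0.347 CPM for Csn2 and at 1.26, 0 and 0.315 CPM for Csn1s1, and its 3 libraries held 4 counts of Csn1s2a in all. The log2 ratios were 9.99 ± 1.67 for Csn2 (adjusted p = 0.00195), 8.59 ± 1.62 for Csn1s1 (adjusted p = 0.0037) and 12.12 ± 2.48 for Csn1s2a (adjusted p = 0.0057). They passed without any single library, and without both libraries 1 and 2 they were 3.85, 3.45 and 3.90 and did not pass. In D542G, Csn2 was the 1 member above WT with giredestrant, where 2.53% of all genes were (5.36 ± 1.48, adjusted p = 0.0470). That call was lost without any 1 of the WT libraries (5.89, 5.35 and 4.99) or of D542G libraries 1 and 2 (5.56 and 4.32). With vehicle, no member differed from WT in Basal of D542G (0.0582% of all genes did) or Y541S (0.157%). Csn2 was at 0.499, 0 and 0.029 CPM in WT, 14.7, 5.03 and 2.68 CPM in D542G and 3.11, 22.6 and 3.90 CPM in Y541S. Neither mutant overlapped WT, at adjusted p = 0.306 and 0.145. Csn2 was also the 1 member at an unadjusted p under 0.05 in each, and DESeq2 called 1 member in each. In WT Basal, giredestrant changed no member, where 11.1% of all genes changed, with 0 members at an unadjusted p under 0.05 and 0 called by DESeq2. Without WT vehicle library 1 the low count filter asked for fewer libraries, and Csn1s2b entered the test and was called lower (adjusted p = 0.0404). It entered through WT with vehicle, the Basal group where it was highest, so the call is no independent support for a fall. Its level was 0.031, 0.327 and 0.494 CPM with vehicle and 0 in all 3 libraries with giredestrant.

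Lalba rose with Csn1s1, Csn1s2a and Csn2 in ML and Basal of Y541S with giredestrant, at much lower mean levels. With vehicle it did not go with Csn2. Its means in ML were then 0.880 CPM in D542G and 1.13 CPM in Y541S, against 0.965 CPM in WT, and neither mutant passed the test. In WT ML with vehicle Lalba was above Csn2 in each library. In ML it was at 0.836, 1.08 and 0.984 CPM in WT with vehicle and at 1.97, 0.981 and 0.754 CPM in WT with giredestrant, which overlapped. In Y541S ML it was at 0.688, 1.09 and 1.61 CPM with vehicle and at 31.3, 10.3 and 3.41 CPM with giredestrant, so that all 3 giredestrant libraries lay above the vehicle ones (3.65 ± 1.02, adjusted p = 0.0168). The call was lost without giredestrant library 1 (2.48) or vehicle library 1 or 2 (3.43 and 3.63), and without giredestrant libraries 1 and 2 the ratio was 1.51. Against WT ML with giredestrant the ratio was 3.59 ± 1.01 (adjusted p = 0.0280), a call lost without any 1 WT library (4.10, 3.45 and 3.35) or Y541S library 1 (2.43). Without Y541S libraries 1 and 2 it was 1.46 (adjusted p = 0.572). In D542G ML the values were 0.425, 1.15 and 1.07 CPM with vehicle and 0.820, 1.44 and 19.5 CPM with giredestrant (2.98 ± 1.0003, adjusted p = 0.0461). That call rested on library 3, without which the ratio was 0.29, and it was also lost without any 1 vehicle library (2.64, 3.22 and 3.12).

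In Basal of Y541S, Lalba was at 0.368, 0.440 and 0.318 CPM with vehicle and at 3.63, 4.69 and 1.42 CPM with giredestrant. The groups did not overlap (3.07 ± 0.71, adjusted p = 0.0101). The call was lost without vehicle library 3 (2.97) or giredestrant library 2 (2.69), and without giredestrant libraries 1 and 2 the ratio was 1.86. WT Basal was at 0.281, 0.262 and 0.291 CPM with vehicle and at 0.039, 0.259 and 0.189 CPM with giredestrant, which is 9, 8 and 10 counts and 1, 7 and 6 counts. Y541S stood 4.24 ± 0.78 above it with giredestrant (adjusted p = 0.0032), and without libraries 1 and 2 the ratio was 3.06 (adjusted p = 0.170). The giredestrant effect was larger in Y541S than in WT by 3.86 ± 1.06 (adjusted p = 0.0494), the 1 member of 5 to pass that test, where 2.75% of all genes did. It was lost without any 1 of 11 of the 12 libraries (3.41 to 4.29), all except Y541S giredestrant library 3, without which Csn1s1 passed as well (7.06, adjusted p = 0.0297). Without both libraries 1 and 2 the Lalba difference was 2.65. One fit of all 51 libraries called no member in this comparison. DESeq2 called Csn1s2a and Csn1s1 and gave no adjusted p for Lalba. In D542G Basal, Lalba was the 1 member of 5 that rose, where 12.6% of all genes did, from 0.033, 0.312 and 0.147 CPM to 0.437, 1.63 and 0.265 CPM. These groups overlapped by 1 library (2.14 ± 0.75, adjusted p = 0.0426). The call was lost without vehicle library 1 or 3 (1.73 and 2.04) or giredestrant library 2 (1.01). The difference of effects from WT passed for no member in D542G, where 0.629% of all genes did, and DESeq2 called 0. Lalba, at 2.92 ± 1.09, was the 1 member at an unadjusted p under 0.05.

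In LP, Lalba was at 6.30, 16.0 and 1.41 CPM in WT, 4.22, 15.02 and 1.89 CPM in D542G and 64.8, 35.8 and 10.6 CPM in Y541S. In Y541S 1 of the 3 libraries, at 10.6 CPM, lay inside the WT range (2.21 ± 0.95, adjusted p = 0.206).

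Wap, the major whey protein of mouse milk, stayed under 10 CPM everywhere. In Y541S ML it was at 0.125, 0.086 and 0.179 CPM with vehicle and at 7.80, 2.07 and 0.435 CPM with giredestrant, with no overlap (4.61 ± 1.22, adjusted p = 0.0130). Without giredestrant library 1 the ratio was 3.12 and did not pass, and without libraries 1 and 2 it was 1.63. WT ML held 0.415, 0 and 0.146 CPM with giredestrant, below the Y541S libraries (4.14 ± 1.17, adjusted p = 0.0287). That call was lost without WT library 2 or 3 (3.58 and 3.998) or Y541S library 1 (2.66), and without libraries 1 and 2 the ratio was 1.18 (adjusted p = 0.742). In LP of Y541S it was at 8.56, 1.49 and 0.684 CPM, above the WT libraries at 0.214, 0.245 and 0.101 CPM, without passing the test (4.22 ± 1.07, adjusted p = 0.0604). It passed there without Y541S library 3 (4.71, adjusted p = 0.0272), and without libraries 1 and 2 the ratio was 1.84 (adjusted p = 0.866). Per kilobase of the principal transcript, the mean level in Y541S ML with giredestrant was 3745 CPM for Csn2, 1955 CPM for Csn1s2a, 856 CPM for Csn1s1, 194 CPM for Glycam1, 19.5 CPM for Lalba, 6.23 CPM for Wap and 1.05 CPM for Csn1s2b. In D542G ML with vehicle, the same level was 40.0 CPM for Csn1s1, 35.1 CPM for Csn2, 9.21 CPM for Glycam1, 5.88 CPM for Csn1s2a, 1.14 CPM for Lalba, 1.01 CPM for Csn1s2b and 0.595 CPM for Wap. Within a group the libraries spread by more than the step between most neighbours in these orders.

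**Figure D5:**
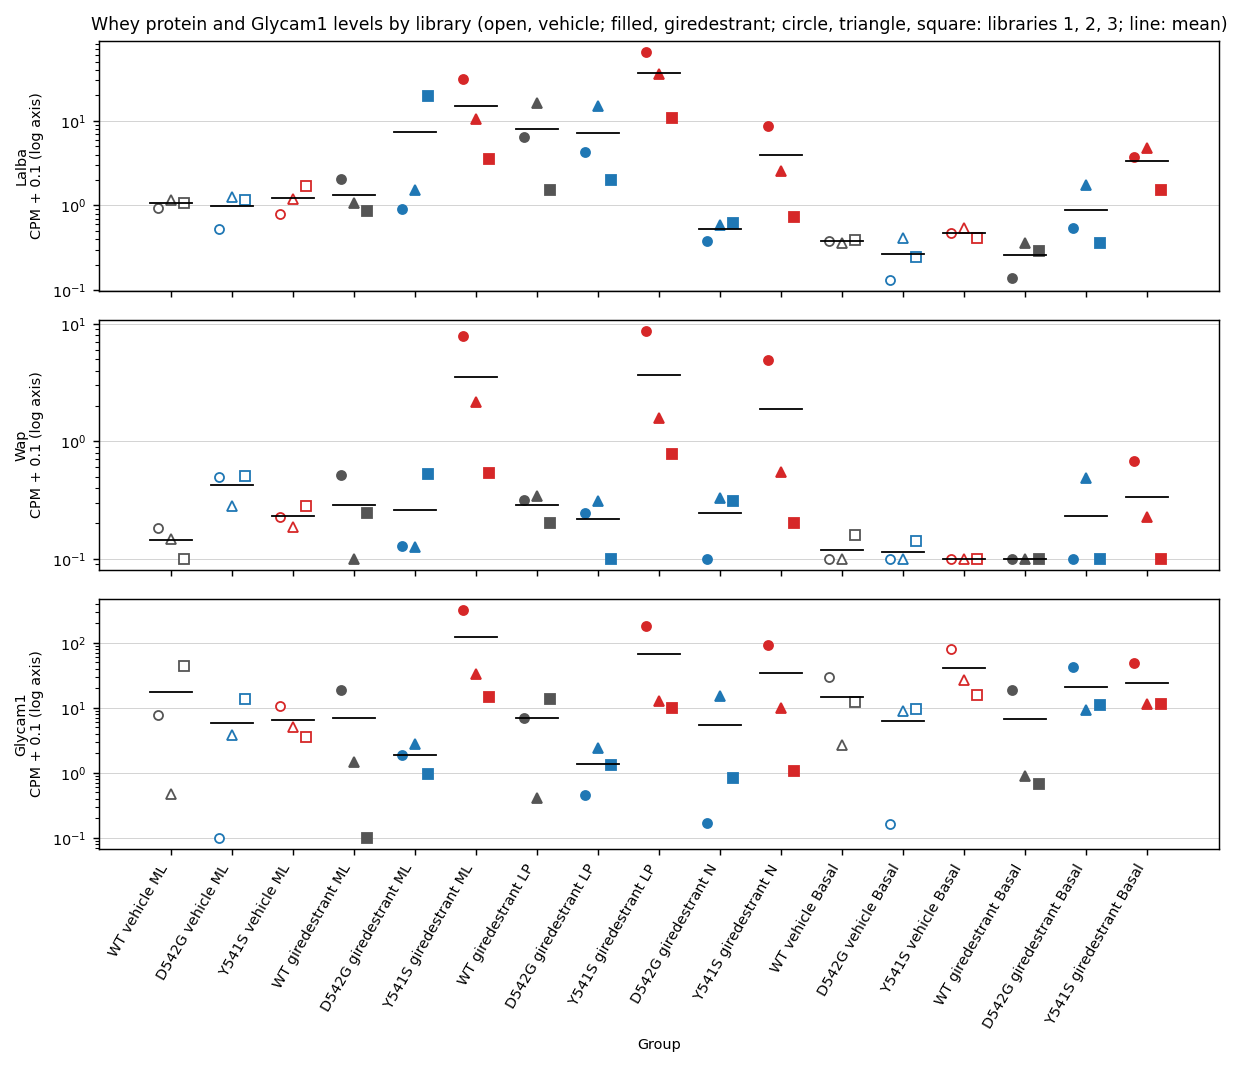
CPM + 0.1 on log axes of Lalba, Wap and Glycam1 in every library, by group, with the symbols and colours of the casein plot. Lalba and Wap are highest in LP and ML of Y541S with giredestrant, at up to 64.8 and 8.56 CPM, and Glycam1 is spread widely within most groups.

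Glycam1, a secreted mucin of milk that vessels of lymph nodes also make, was variable in every population. In WT with vehicle it was at 7.65, 0.374 and 44.2 CPM in ML and at 29.5, 2.55 and 12.4 CPM in Basal. In Y541S with vehicle it was at 10.7, 4.98 and 3.52 CPM in ML and at 81.5, 26.9 and 15.4 CPM in Basal. Its highest values were again in Y541S with giredestrant, at 318, 33.6 and 14.7 CPM in ML and 182, 12.5 and 10.01 CPM in LP. All 3 ML libraries were above those with vehicle (4.19 ± 1.76), but Glycam1 did not pass this test (adjusted p = 0.0947) or any other of the 28 comparisons. Markers of high endothelial venules and lymph node vessels summed to 133, 64.0 and 67.2 CPM in these ML libraries, against 19.3, 27.5 and 13.4 CPM with vehicle. All 6 endothelial markers rose in this comparison, and their sum was 141, 121 and 92.0 CPM against 35.7, 24.02 and 22.4 CPM. Their part in the Glycam1 level was not tested.

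Averaged over the 3 genotypes with giredestrant, 5 of 7 members were higher in LP than in Basal, where 26.8% of all genes were, with medians of 3.18 and 0.02. The log2 ratio was 4.07 ± 0.71 for Lalba (adjusted p = 2.57e-05), 3.95 ± 0.85 for Csn1s2b (adjusted p = 0.00034), 3.40 ± 0.99 for Csn1s1 (adjusted p = 0.0050), 3.18 ± 1.30 for Wap (adjusted p = 0.0423) and 2.77 ± 1.12 for Csn2 (adjusted p = 0.0392). The Wap call was lost without any 1 of 12 of the 18 libraries (2.59 to 3.19), all but WT LP 3, D542G LP 3, D542G Basal 2, Y541S LP 2 and 3 and Y541S Basal 1. The Csn2 call was lost without any 1 of 11 (2.52 to 2.94), all but WT LP 2 and 3, D542G LP 1 and 3, D542G Basal 2, Y541S LP 3 and Y541S Basal 1. Lalba, Csn1s2b and Csn1s1 kept theirs in each of these fits, and Csn1s2a, at 3.14 ± 1.66 (adjusted p = 0.114), passed without D542G Basal 2 (4.45, adjusted p = 0.0397). Without Y541S libraries 1 and 2 of each population, the Csn2 ratio was 2.59 and did not pass (adjusted p = 0.0779), and the other 4 calls held at 3.30 to 4.36. In ML, 4 of 7 were higher than in Basal, where 28.9% of all genes were: Csn1s2b (4.48 ± 0.83), Wap (3.29 ± 1.28), Csn1s1 (3.28 ± 0.99) and Lalba (2.77 ± 0.70). The Wap call was lost without WT ML 1, D542G ML 3, Y541S ML 1, any 1 WT Basal library or D542G Basal 1 or 3 (2.50 to 3.29). Csn2, at 2.50 ± 1.13 (adjusted p = 0.0609), passed without Y541S ML 3 (2.70, adjusted p = 0.0370) or D542G ML 1 (2.70, adjusted p = 0.0388). The same-numbered ML and Basal libraries deviated together here, and with the replicate block Csn1s2a passed as well (2.94, adjusted p = 0.0077). The 4 calls of ML against Basal held without Y541S libraries 1 and 2 (2.47 to 4.49). Between LP and ML no member passed, where 5.54% of all genes did. Lalba was closest at 1.30 ± 0.61 (adjusted p = 0.244), it was the 1 member at an unadjusted p under 0.05, and DESeq2 called 0. Lalba passed without D542G ML library 3 (2.20, adjusted p = 0.0222).

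With vehicle, ML against Basal gave 4 higher members of 6 tested, where 32.5% of all genes were higher. They were Csn1s2b (5.62 ± 0.80), Csn1s2a (4.31 ± 0.69), Csn1s1 (3.01 ± 0.58) and Lalba (1.93 ± 0.32), with adjusted p of 2.2e-05 to 0.00025. Wap was too low for the test with all libraries. Leaving out 1 library shrinks the smallest group, and the low count filter then asks for fewer libraries. In 16 of the 18 such fits Wap entered the test and was called higher (3.09 to 4.26). It entered through D542G ML, its highest vehicle group, at 0.397, 0.179 and 0.408 CPM. These calls therefore do not show how stable the difference is. The replicate numbers paired ML and Basal libraries here, and with the replicate block 6 members were called: Csn2 was higher as well (1.80, adjusted p = 0.0102), and Glycam1 was lower (-1.18, adjusted p = 0.0362).

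Averaged over both mutants, 2 of 7 members were lower in N than in ML, where 15.9% of all genes were: Lalba (-3.01 ± 0.82, adjusted p = 0.0061) and Csn1s2b (-2.95 ± 0.88, adjusted p = 0.0123). The Lalba call was lost without D542G ML library 3 (-1.66). Without Y541S libraries 1 and 2 neither passed, at -3.27 for Lalba (adjusted p = 0.0853) and -2.69 for Csn1s2b (adjusted p = 0.159). Same-numbered N and ML libraries deviated together, and with the replicate block Csn1s1 was lower as well (-2.34, adjusted p = 0.0112). Lalba was also the 1 member lower in N than in LP (-3.62 ± 0.83, adjusted p = 0.0012), where 19.7% of all genes were, and it held without Y541S libraries 1 and 2 (-4.04, adjusted p = 0.0336). Csn2 was at -1.98 ± 1.27 against ML and at -1.20 ± 1.24 against LP, neither past the test. Csn1s2b, at -2.17 ± 0.89 against LP (adjusted p = 0.0587), passed without D542G LP 1, D542G N 1, Y541S LP 3 or Y541S N 1 (-2.44 to -3.24). No member differed between N and Basal, where 45.2% of all genes did, with 0 at an unadjusted p under 0.05 and 0 called by DESeq2. Between the mutants in N, Csn1s2b was the 1 member higher in Y541S, where 4.44% of all genes were (adjusted p = 0.0371). That rests on 41, 6 and 9 counts in Y541S against 1, 0 and 0 in D542G, and was lost without any 1 D542G library or Y541S library 1 (adjusted p = 0.0600 to 0.219) or Y541S libraries 1 and 2 (adjusted p = 0.368). Csn2 in N was at 2.59, 118 and 115 CPM in D542G, overlapping Y541S (3.97 ± 1.95, adjusted p = 0.204).

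The members fell into sets by how they varied. Over the 51 libraries, Pearson's r of log2 CPM was 0.92 between Csn1s1 and Csn2, 0.89 between Csn1s1 and Csn1s2a and 0.86 between Csn1s2a and Csn2. Wap and Lalba had r of 0.71 to 0.83 with these 3. Glycam1 had r of 0.28 to 0.43 with the 3 caseins, Wap and Lalba, and Csn1s2b had r of 0.04 with Csn2 and 0.43 with Csn1s2a. These are descriptions: the libraries share groups, and the high ones are few. The other genes whose log2 CPM went most closely with the members' mean, among 11159 genes with at least 10 CPM in 3 libraries, were Lpl (r = 0.82), Lbp (0.81), Larp1 (0.79), Pigr (0.79), Kank1 (0.79), Atp6v1c2 (0.78), Olah (0.78), Thrsp (0.77), Zfp568 (0.76) and Tmprss6 (0.76). Lpl, lipoprotein lipase, was at 148, 71.7 and 25.0 CPM in ML of Y541S with giredestrant. Pigr, the receptor that carries immunoglobulin A into milk, was at 66.0, 19.7 and 6.43 CPM. Both kept the order of the caseins there, which genes picked for going with the members' mean are likely to share. Kank1, at 64.9, 74.0 and 56.0 CPM, and Tmprss6, at 1441, 1484 and 129 CPM, did not keep it. The other genes named did.

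Of 19 tested genes of milk fat and other milk secretion, 10 rose and 2 fell in ML of Y541S with giredestrant, where 12% of all genes rose and 13% fell, with medians of 1.40 over the list and 0.02 over all genes. The largest were Spp1, osteopontin (4.85 ± 1.55), Olah, which ends fatty acid synthesis at medium chains (4.56 ± 0.65), Pigr (4.29 ± 0.77) and Thrsp, a promoter of lipogenesis (3.37 ± 1.08), with adjusted p of 0.00041 to 0.0329. Without Y541S libraries 1 and 2, 1 rose and 1 fell. In WT 4 rose and 3 fell, where 17.1% of all genes rose and 17% fell, and in D542G 5 rose and 3 fell, where 9.34% rose and 11.3% fell. The difference of the giredestrant effect between Y541S and WT passed for 6 of the 19, all larger in Y541S, where 3.98% of all genes were. Among them were Pigr (4.81 ± 1.02), Olah (3.75 ± 0.84), Lpl (3.20 ± 0.84) and the lipid droplet protein Plin2 (2.08 ± 0.53). In LP, 4 were higher in Y541S than in WT, where 2.43% of all genes were: Thrsp (5.28 ± 1.002), Lpl (3.93 ± 0.56), Pigr (3.10 ± 0.61) and Cel, a lipase (2.16 ± 0.45). Fibroblast markers were also far higher in LP of Y541S than of WT, as given above, and their part in these 4 was not tested. Without Y541S libraries 1 and 2 none of the 19 passed in either of these comparisons.

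Prolactin and Stat5 pathway genes were tested as a list of 16. In ML, 3 rose and 4 fell with giredestrant in WT, 1 rose and 5 fell in D542G, and 3 rose and 2 fell in Y541S. Among all genes 17.1% rose and 17% fell in WT, 9.34% and 11.3% in D542G and 12% and 13% in Y541S. Without Y541S libraries 1 and 2, 0 rose and 3 fell there. Stat5a fell in all 3 genotypes, with log2 ratios of -2.85 ± 0.38 in WT, -2.05 ± 0.37 in D542G and -1.29 ± 0.36 in Y541S (adjusted p = 5.95e-05, 0.0027 and 0.0168). So did Socs2, an inhibitor of the pathway that Stat5 induces, at -2.06 ± 0.34, -2.06 ± 0.34 and -1.37 ± 0.33. Elf5, the transcription factor of alveolar fate, rose in WT (1.23 ± 0.28). In Y541S, Cebpb (0.87 ± 0.24) and Nr3c1, the glucocorticoid receptor (0.72 ± 0.18), rose. Within Y541S with giredestrant, Stat5a was at 477, 227 and 151 CPM in ML, 248, 153 and 112 CPM in LP, 629, 306 and 211 CPM in N and 164, 127 and 116 CPM in Basal. Libraries 1 to 3 kept the order of Csn2 in all 4, which are not independent repeats. How many other genes, in the list or among all genes, keep this order was not counted. A part of Stat5a in the casein levels was not tested. With vehicle, Prlr, the prolactin receptor, was lower in D542G ML than in WT (-1.61 ± 0.37, adjusted p = 0.0076).

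Of the 7 genes listed as neighbours of the casein cluster, 6 were matched and 1 had counts enough for the test in ML. It was Sult1d1, a sulfotransferase, which was higher in Y541S than in WT with vehicle (5.54 ± 1.61, adjusted p = 0.0386). Of the 6 genes with the whey acidic protein domain or its kind, 4 were tested in ML. With giredestrant, Wfdc3 and Wfdc2 fell in Y541S (-2.06 ± 0.54 and -1.83 ± 0.61), with no call in the list without libraries 1 and 2, and both fell and Wfdc18 rose in WT (-2.42 ± 0.55, -2.35 ± 0.62 and 1.05 ± 0.38).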

How the data were processed

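The 51 deposited tables each hold 1 library with a whole-number count, a width and an RPKM value per Ensembl gene, per the file headers. Nextera XT was used on the cDNA, per the labels' protocols, and the build GRCm38 is named in the submitters' processing notes. Of the aligner, the counter and the use of strand nothing is given in the sources used here. The deposited RPKM values followed from count and width with a library total of which the gene counts are 84.99 to 89.13%. They were not tested. The deposited width, a length in bases, equals the GENCODE M21 gene span for 85.2% of genes and was not used for levels.

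Groups came from the titles and the cell type label, because the source name is mature luminal for all samples. Of the 52636 genes, 52403 were named from GENCODE M21. The 8 members and the other lists were chosen with earlier results of these data known. Counts were tested with edgeR 4.0.16 (R 4.3.3), using quasi-likelihood F tests, TMM scaling and filterByExpr by group, with Benjamini-Hochberg adjustment over all genes of the fit and calls at an adjusted p under 0.05. The fits covered the 18 ML, 18 Basal or 9 LP libraries, all 33 giredestrant libraries or all 18 vehicle libraries, which gave 28 comparisons. Comparisons that share a group share its libraries. The SE of a log2 ratio is its size divided by the root of F. Likeness used log2 CPM with a prior count of 2. Named genes are the members, up to 4 called genes per list with the largest ratios, and the 10 genes most like the members' mean. The test was checked on simulated data. Other settings were RLE scaling, no low count filter, DESeq2 1.42.0, one fit of all 51 libraries, a replicate block, the loss of the Y541S giredestrant libraries numbered 1 and 2, and the loss of each library in turn (96 fits).

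Replicate numbers were taken to pair the libraries of a comparison where deviations from the group means correlated above 0.1 in every same-numbered pair. That held for ML and Basal with vehicle (9 of 9 pairs, 0.180 to 0.233) and, with giredestrant, for ML and Basal (9 of 9), LP and ML (9 of 9) and N and ML (6 of 6). It did not hold for LP and Basal, N and LP or N and Basal. Levels under about 1 CPM rest on few counts, as for Wap, Csn1s2b and Lalba in Basal, so counting error adds there to the spread between the 3 libraries.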

Additional observations from a re-analysis of the deposited data

Results flagged for a closer look

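In the main fit, the giredestrant effect on Lalba in Basal cells differed between genotypes, by a test of the difference itself. It was 3.86 higher in Y541S than in WT on the log2 scale (SE 1.06, adjusted p = 0.0494 by edgeR). Lalba was higher with giredestrant in 3 of 3 Y541S libraries, at 3.63, 4.69 and 1.42 CPM against 0.318 to 0.440 CPM with vehicle. In WT it was at 0.039, 0.259 and 0.189 CPM against 0.262 to 0.291 CPM, which is 1, 7 and 6 counts against 9, 8 and 10, and it did not pass the test of giredestrant against vehicle there. The call did not pass without any 1 of 11 of the 12 libraries, and without Y541S giredestrant libraries 1 and 2 the difference was 2.65. One fit of all 51 libraries called no member in this comparison. The Lalba call thus depends on the libraries fitted. DESeq2 called Csn1s2a and Csn1s1 there and gave no adjusted p for Lalba, so it does not bear on that call.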

How the results depend on the processing

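The counts of members called are given here where a setting moved them by more than 1.5 times. RLE scaling moved none of the 28. With DESeq2 the count was 2 in ML for Y541S against WT with vehicle, 4 for D542G against WT with giredestrant, and 2 and 1 for the difference of giredestrant effects in D542G and Y541S. In Basal it was 2 for giredestrant in D542G, 1 each for D542G and Y541S against WT with vehicle, 3 for D542G against WT with giredestrant and 2 for the difference of effects in Y541S. It was 2 for N against LP and 3 between the mutants in N, and in ML for D542G against WT with vehicle it was 3. Without the low count filter it was 2 for giredestrant in Basal of D542G and 2 for the Basal difference of effects in Y541S, where more genes are tested. One fit of all 51 libraries gave 1 in ML for D542G against WT with giredestrant, 1 for giredestrant in WT Basal, 0 for it in D542G Basal, 0 in Basal for D542G against WT with giredestrant, 0 for the Basal difference of effects in Y541S and 2 between the mutants in N. Without the Y541S giredestrant libraries numbered 1 and 2 the count was 0 in ML and Basal for Y541S against vehicle and against WT, for the Basal difference of effects, in LP against WT, for N against ML and between the mutants in N. These fits leave 1 library in each Y541S giredestrant group, and the number of all genes called also moved in 12 comparisons and not in 2. In them the log2 ratio to vehicle reversed to -0.16 for Csn1s1, -1.53 for Csn2 and -3.37 for Csn1s2a in ML and to -1.05 for Csn1s2a in Basal.

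The replicate block gave 0 called members for giredestrant in D542G ML, 2 in Y541S ML, 1 and 0 for D542G and Y541S against WT with vehicle in ML, 1 in LP for Y541S against WT, 2 for N against LP and 2 between the mutants in N. Within a population, 18 of 102 same-numbered pairs correlated above 0.1, so the numbers pair nothing between genotypes or treatments. Where the numbers were not taken to pair libraries, the block added calls of Csn1s2a in LP against Basal (3.15, adjusted p = 0.0016) and of Csn1s1 in N against LP (-2.27, adjusted p = 0.0113) and between the mutants in N (3.63, adjusted p = 0.0168). Where they were, it changed no call of a member other than the 4 given beside their results.

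Leaving out 1 library gave 0 to 1 called members for giredestrant in D542G ML, 0 to 5 in Y541S ML, 0 to 1 for either mutant against WT with vehicle in ML, 3 to 5 for Y541S against WT with giredestrant in ML and 0 to 1 for either difference of effects there. In Basal the ranges were 0 to 1, 0 to 2 and 1 to 4 for giredestrant in WT, D542G and Y541S, 0 to 1 for D542G against WT with giredestrant and 0 to 2 for the difference of effects in Y541S. They were 0 to 4 for Y541S against WT in LP, 0 to 1 for LP against ML, 3 to 6 for LP and 3 to 5 for ML against Basal, 1 to 2 for N against ML or LP, 0 to 1 between the mutants in N and 4 to 6 for ML against Basal with vehicle. Leaving out 1 library also loosens the low count filter. Only then did Csn1s2b in WT Basal and Wap in ML against Basal with vehicle enter these fits. Of the 46 log2 ratios of called members, all held under RLE scaling and without the filter, 3 lost their call in one fit of all libraries and 8 with the block. Leaving out 1 library also shifted the number of all genes called. It went from 4282 to between 2395 and 3912 for giredestrant in Y541S ML, and from 587 to between 0 and 979 for Y541S against WT in LP. The cause of these changes was not tested. Genes at a few counts, such as Wap and Csn1s2b in Basal, are limited by depth.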
